A study of Sus scrofa with 8 samples.

Results

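HSPB1, HSPB3, CRYAB and BAG3 encode small heat shock proteins of muscle and the cochaperone that works with them. Every probe set whose only gene symbol in the platform annotation was one of these 4 was taken, whatever its values. This gave 6 probe sets of 23999 tested and 4 genes of 6765 named. The 4 genes themselves were chosen with earlier results of these data known. HSPB1 and HSPB3 had 1 probe set each, and CRYAB and BAG3 had 2 each, called the brighter and the dimmer one here. RNA had been measured on Affymetrix porcine arrays, 1 per animal, in left ventricular muscle outside the infarct. The 8 animals were Yorkshire pigs, castrated males less than 1 year old with a mean weight of 54.5 kg. All had had a myocardial infarction, and no pig without one was among them. Of these, 3 were untreated, 3 received glial growth factor 2 (GGF2) at 0.67 mg/kg per infusion (low dose) and 2 received 2.0 mg/kg per infusion (high dose), both over 4 weeks. GGF2 is a form of neuregulin-1, which acts on heart muscle cells through ERBB receptors, and the comparisons ask how its infusion was accompanied by changes of these 4 transcripts. With 2 or 3 animals in each group, the number of arrays limits the precision of every value.

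Small heat shock proteins bind other proteins that begin to unfold and hold them in a soluble state, without using ATP. In heart muscle HSPB1 (HSP27) and CRYAB (alphaB-crystallin) bind desmin, actin and titin, filament proteins of the cytoskeleton and the contractile apparatus, when the muscle is under stress. HSPB3 is a small heat shock protein of muscle that forms a complex with HSPB2. BAG3 joins small heat shock proteins, above all HSPB8, to HSP70 chaperones, and with them sends damaged filament proteins of the Z-disc to autophagy. In humans, mutations of CRYAB and of BAG3 cause diseases of heart and skeletal muscle. Heat shock factor 1 is known to switch on HSPB1, CRYAB and BAG3.

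The values are log2 values after RMA, a method that corrects background and gives all arrays the same distribution, so that 1 unit is a doubling of the signal. The arrays had lower quartiles between 3.72 and 3.80, and every value of the 6 probe sets lay above them, the lowest being 4.83. The markers of the labelled tissue were present: all 12 measured genes of ventricular heart muscle cells, MYH7, MYL2 and TNNT2 among them, lay above the lower quartile, and their mean was 13.11 to 13.21 in untreated, 13.15 to 13.24 in low-dose and 13.28 to 13.29 in high-dose animals. The arrays correlated with one another at 0.981 to 0.994 across probe sets, and none stood apart.

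In all 6 probe sets the 2 high-dose animals had the highest values of the 8 animals. Of all 23999 probe sets, 6.52% showed that order. Because the 4 genes were chosen with earlier results of these data known, the shares beside the counts describe them and test nothing. CRYAB and BAG3 also count with 2 probe sets each. The mean of the high-dose animals exceeded that of the untreated animals by 0.71 for HSPB1, 0.48 for HSPB3, 0.36 and 1.52 for CRYAB (brighter and dimmer) and 1.20 and 1.25 for BAG3. High-dose and untreated values did not overlap in 6 of 6 probe sets, with the high dose above, against 14.7% of all probe sets. None of the 6 passed in this comparison (limma, Benjamini-Hochberg adjusted p under 0.05 over all probe sets), and 0% of all probe sets did. At an unadjusted p under 0.05, 5 of the 6 were higher, against 3.61% of all probe sets. The median change over all probe sets was 0.01, a value near 0 that the normalization itself sets. Of all probe sets, 53.3% had a change above 0 at the high dose against untreated, and 52.0% at the low dose. For the low dose no such order was seen: 3 of the 6 changes against untreated were above 0 and 3 were below.

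**Figure D1:**
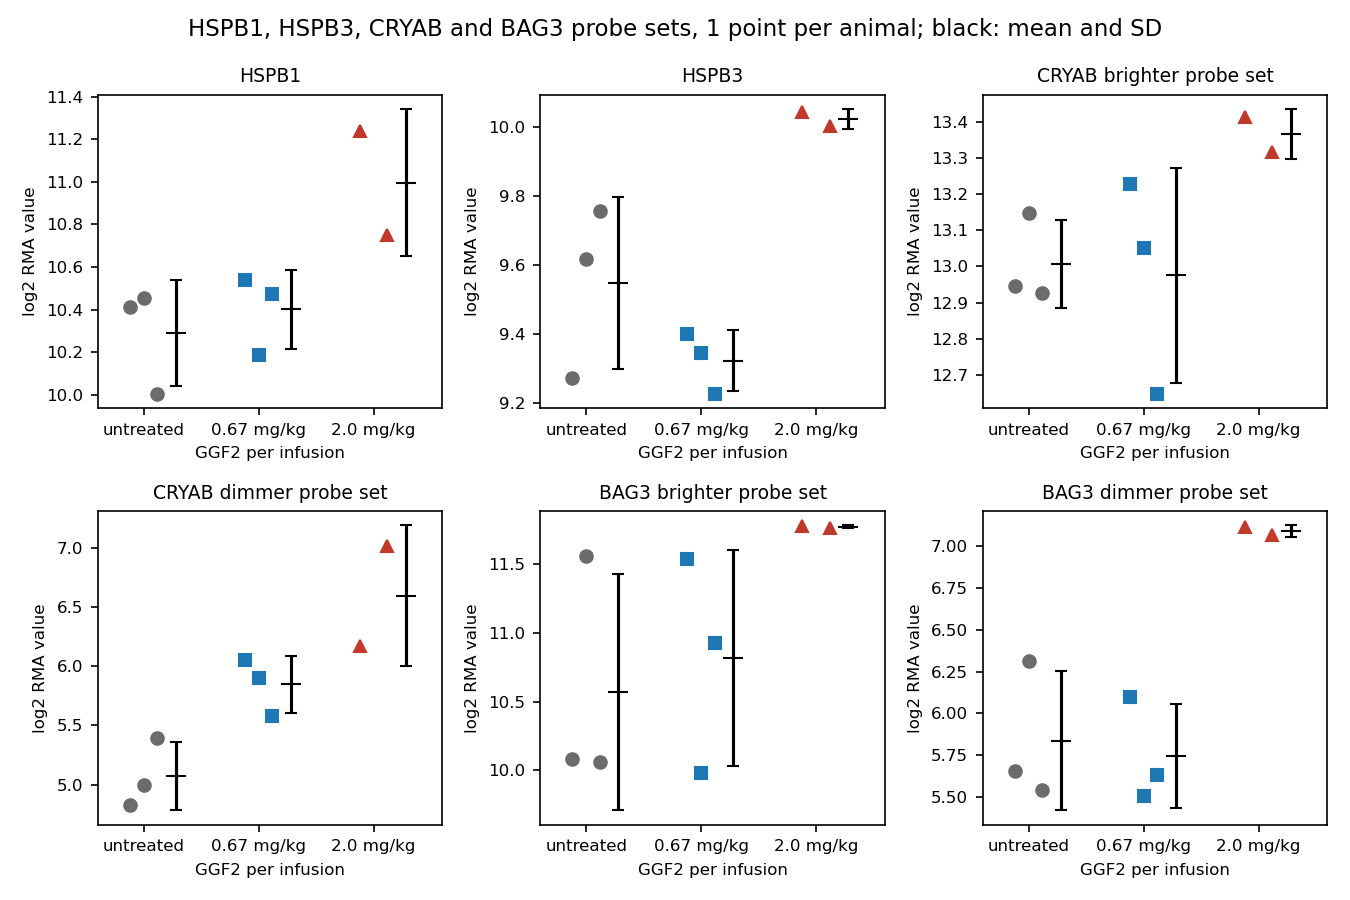
Log2 RMA values (vertical axis) of the 6 probe sets of HSPB1, HSPB3, CRYAB and BAG3 by GGF2 dose per infusion (horizontal axis), with 1 point for each animal and the group mean and SD in black (n = 3 untreated, 3 at 0.67 mg/kg and 2 at 2.0 mg/kg). The 2 animals at 2.0 mg/kg are the highest in every panel, and in the panel of the brighter BAG3 probe set 1 untreated and 1 low-dose animal, at 11.56 and 11.54, come close to them.

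HSPB1, which also caps actin filaments, had 10.41, 10.46 and 10.003 in untreated animals, 10.54, 10.19 and 10.48 at the low dose and 11.24 and 10.75 at the high dose (probe set Ssc.11197.1.S1_at). The untreated and low-dose values overlapped, and both high-dose values lay above all others, 0.49 apart. The change at the high dose against untreated was 0.71 ± 0.20 (SE), a fold change of 1.63 with a 95% confidence interval of 1.19 to 2.25 (limma adjusted p = 0.406). Between high and low dose it was 0.59 ± 0.20 (limma adjusted p = 0.381). The low dose differed from untreated by 0.11 ± 0.18 (limma adjusted p = 0.998), with an interval of -0.30 to 0.52.

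HSPB3 had 9.27, 9.62 and 9.76 in untreated animals, 9.40, 9.34 and 9.23 at the low dose and 10.04 and 10.004 at the high dose (probe set Ssc.19576.1.S1_at). The 2 high-dose animals were nearly alike, and the low-dose animals lay in the lower part of the untreated range or just under it. The low-dose mean was 9.32 ± 0.09 (SD, n = 3) and the untreated mean 9.55 ± 0.25 (n = 3), a change of -0.23 ± 0.14 (SE; limma adjusted p = 0.998). At the high dose the change against untreated was 0.48 ± 0.15, a fold change of 1.39 (limma adjusted p = 0.483). The larger difference was that between the doses, 0.70 ± 0.15 with an interval of 0.35 to 1.05 (limma adjusted p = 0.244). In order of level, high dose came first, and the other 2 groups did not differ beyond their spread.

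CRYAB gave different sizes of change on its 2 probe sets. The brighter one (Ssc.10931.1.S1_at) had 12.95, 13.15 and 12.93 in untreated animals, 13.23, 13.05 and 12.65 at the low dose and 13.41 and 13.32 at the high dose. The low-dose animals spanned the whole untreated range, and the high-dose values lay just above the highest low-dose value. The change at the high dose against untreated was 0.36 ± 0.18 (SE), with an interval of -0.04 to 0.76 (limma adjusted p = 0.667), and at the low dose against untreated -0.03 ± 0.16 (limma adjusted p = 0.998).

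The dimmer CRYAB probe set (Ssc.19588.2.A1_at) had 4.83, 4.997 and 5.39 in untreated animals, 6.06, 5.90 and 5.58 at the low dose and 6.17 and 7.01 at the high dose. Here the 3 groups did not overlap at all: every low-dose animal lay above every untreated one, and both high-dose animals lay above the low-dose ones. It was the single probe set of the 6 in which low-dose and untreated values did not overlap, with the low dose above, which 5.23% of all probe sets did. Its change against untreated was 0.77 ± 0.24 at the low dose (limma adjusted p = 0.998) and 1.52 ± 0.27 at the high dose, a fold change of 2.87 with an interval of 1.87 to 4.39 (limma adjusted p = 0.202). The high-dose interval on the log2 scale, 0.91 to 2.13, did not meet that of the brighter probe set, and the difference between the probe sets was not tested. In the RefSeq annotation of the pig genome (Sscrofa11.1) CRYAB and HSPB2 are neighbours whose spans overlap, and the dimmer CRYAB probe set and the HSPB2 probe set carry the same leading number in their names. HSPB2 itself had a change of 0.18 ± 0.12 at the high dose against untreated (limma adjusted p = 0.778). Which transcript the dimmer probe set reads was not tested.

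BAG3 varied widely from animal to animal on its brighter probe set (Ssc.13649.1.S1_at), which had 10.08, 11.56 and 10.06 in untreated animals, 11.54, 9.98 and 10.93 at the low dose and 11.78 and 11.77 at the high dose. Untreated animal 2 and low-dose animal 1 stood about as high as the high-dose pair, while the other untreated animals and low-dose animal 2 lay near 10. The spread within groups, a residual SD of 0.74, was larger than that of 98.7% of all probe sets. The change at the high dose against untreated was 1.20 ± 0.53 (SE), a fold change of 2.30 with an interval of 1.00 to 5.28 (limma adjusted p = 0.623). At the low dose it was 0.25 ± 0.47 (limma adjusted p = 0.998).

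The dimmer BAG3 probe set (Ssc.13649.2.S1_a_at) had 5.66, 6.31 and 5.54 in untreated animals, 6.10, 5.51 and 5.63 at the low dose and 7.11 and 7.07 at the high dose. The same untreated and low-dose animals were the highest of their groups, but here they stayed well under the high-dose pair. The change at the high dose was 1.25 ± 0.25 against untreated (limma adjusted p = 0.26) and 1.35 ± 0.25 against the low dose (limma adjusted p = 0.173), the smallest adjusted p of the 6 probe sets in any comparison. The low dose differed from untreated by -0.09 ± 0.23 (limma adjusted p = 0.998).

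**Figure D2:**
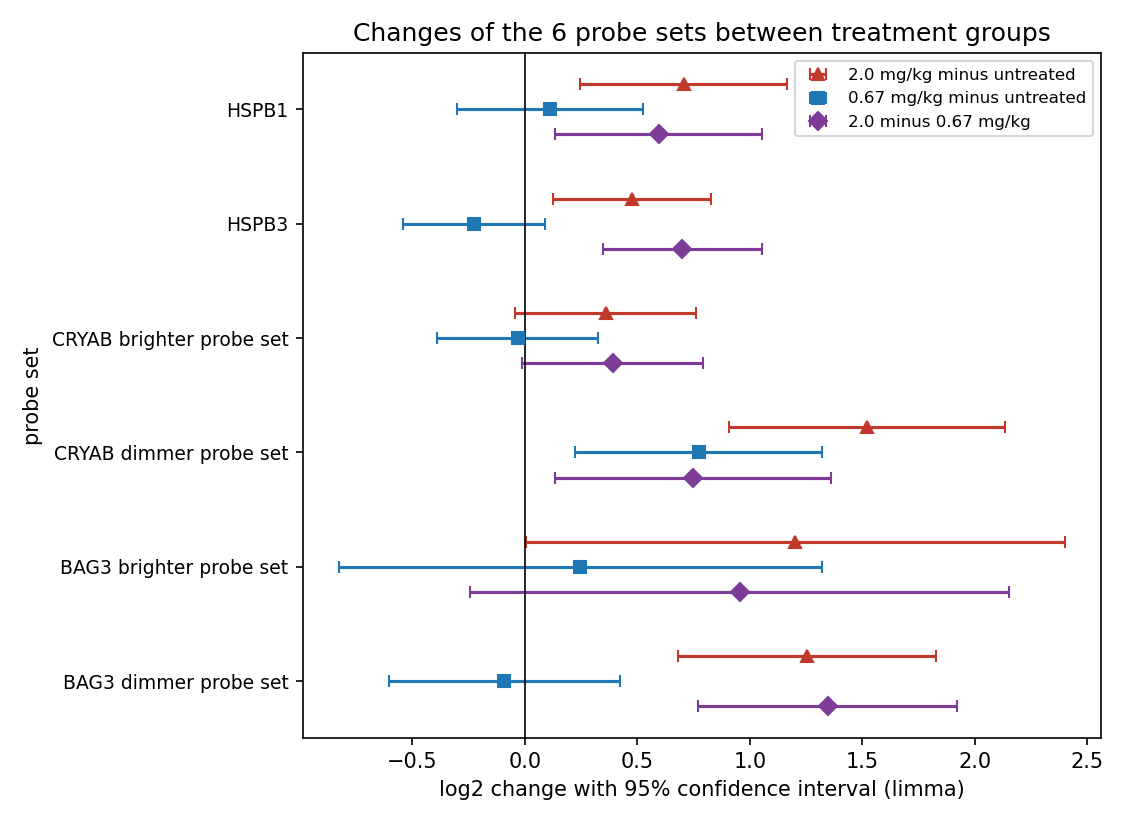
Log2 changes (horizontal axis) of the 6 probe sets (vertical axis) with 95% confidence intervals from limma, for 2.0 mg/kg minus untreated, 0.67 mg/kg minus untreated and 2.0 minus 0.67 mg/kg, with a line at 0. The intervals of the high dose against untreated lie above 0 except for the brighter CRYAB probe set (-0.04 to 0.76), and those of the low dose against untreated include 0 except for the dimmer CRYAB probe set (0.22 to 1.32).

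The direct comparison of high with low dose asked whether the 2 doses differed. All 6 probe sets were higher at the high dose with no overlap, against 13.2% of all probe sets, and 4 of 6 had an unadjusted p under 0.05 with the high dose above, against 4.38%. None of the 6 passed after adjustment (limma), where 0.025% of all probe sets did. These high-dose animals are the same 2 that were set against the untreated group. In the low dose against untreated 0 of 6 passed (0% of all probe sets), and 1 of 6, the dimmer CRYAB one, had an unadjusted p under 0.05 with the low dose above, against 2.77%.

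When both doses were set against untreated, limma compared the mean of the 2 dose-group means with the untreated mean. The 2 high-dose animals thus weighed as much as the 3 low-dose ones. Here 0 of 6 passed in limma (0% of all probe sets), and 1 of 6 had no overlap (1.61%). At an unadjusted limma p under 0.05, 3 of 6 were higher (2.43% of all probe sets): HSPB1, the dimmer CRYAB and the dimmer BAG3 probe set. The low-dose changes against untreated were 0.11 for HSPB1 and -0.09 for the dimmer BAG3 probe set. The dimmer CRYAB probe set was the one without overlap, higher in 5 of 5 treated animals than in any untreated one. In limma it changed by 1.15 ± 0.22 (SE). Its exact two-sided permutation test over the 5 treated and 3 untreated animals gave p = 0.0357, the smallest that this design allows, without adjustment for the 6 probe sets tested. The other 5 probe sets gave p between 0.179 for HSPB1 and 0.857 for HSPB3 in the same exact permutation test.

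The animals in which BAG3 was high were also those with high immediate early genes, a class that responds to a stimulus without new protein synthesis. The mean of the 22 immediate early genes measured, FOS, EGR1 and ATF3 among them, was 8.02, 9.28 and 8.06 in untreated animals, 9.41, 7.88 and 8.88 at the low dose and 10.14 and 9.91 at the high dose. Untreated animal 2 and low-dose animal 1 again stood above the rest of their groups. The Pearson correlation of this mean with the brighter BAG3 probe set over the 8 animals was 0.98 (Spearman 0.95), and after the group means were removed it was 0.99. For the dimmer BAG3 probe set the correlation was 0.92, both before and after that step. These are descriptions of 8 arrays that share their treatment groups and their normalization.

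For the other genes the correlation with the immediate early mean was lower. It was 0.86 for HSPB1 (0.64 after removal of the group means), 0.65 for HSPB3 (0.21), 0.68 for the brighter CRYAB probe set (0.36) and 0.61 for the dimmer one (-0.10). When the immediate early mean was added to the fit as a covariate, the change at the high dose against untreated became -0.50 for the brighter and 0.54 for the dimmer BAG3 probe set. With the same covariate it was 0.33 for HSPB1, 0.39 for HSPB3, 0.19 for the brighter and 1.60 for the dimmer CRYAB probe set, and none of these passed in limma. The immediate early genes themselves differed with dose, all 22 being higher at the high dose than in untreated animals by a median of 1.52. Over all probe sets 53.3% were higher. The part of dose and of the immediate early response in the BAG3 values cannot be told apart with 2 high-dose animals.

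**Figure D3:**
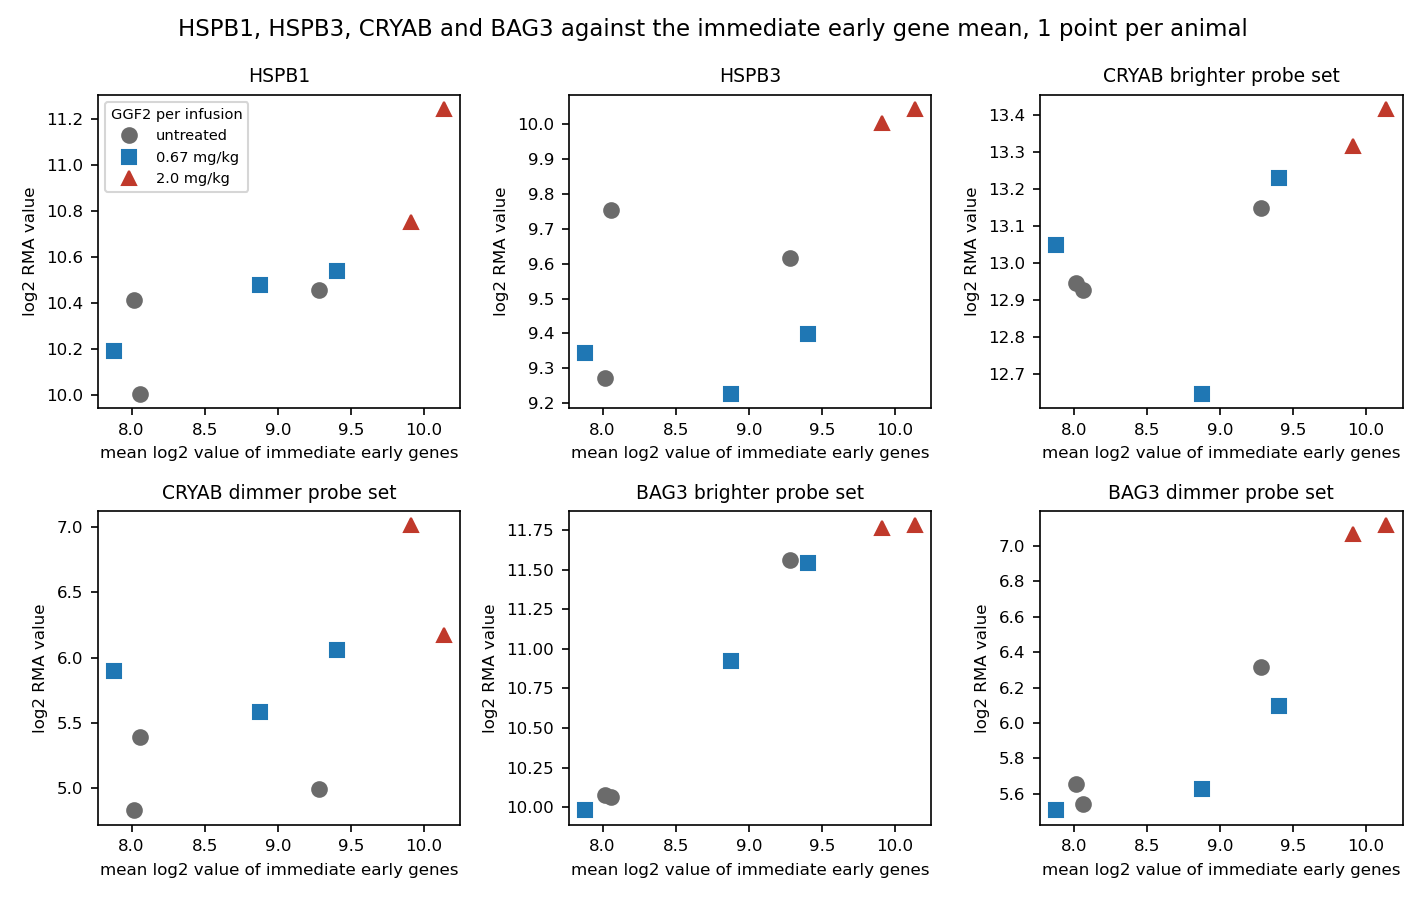
Log2 RMA values of the 6 probe sets (vertical axis) against the mean log2 value of 22 immediate early genes (horizontal axis), with 1 point for each of the 8 animals by GGF2 dose. The brighter BAG3 probe set follows the immediate early mean across all 3 groups (Pearson 0.98), while HSPB3 is scattered below the 2 high-dose animals (0.65).

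Untreated animal 2 and low-dose animal 1 carry neighbouring tag numbers in the labels, although they belong to different groups, and so do untreated animals 1 and 3 and the 2 high-dose animals. Whether tag numbers stand for a litter, a supplier or a day is not given in the sources used here. Without untreated animal 2 and low-dose animal 1 the change at the high dose against untreated was 1.70 on the brighter and 1.49 on the dimmer BAG3 probe set. The dimmer one then passed in limma with an adjusted p = 0.0244 (0.0244 to 0.9998 over all alternatives), 1 of 6 against 0.229% of all probe sets. It also passed against the low dose, at 1.52 (limma adjusted p = 0.0324, and 0.0324 to 0.703 over the alternatives), 1 of 6 against 0.05%. Since these animals had the highest BAG3 values of their groups, leaving them out lowers the other groups' means and spread by construction. Without the other neighbouring pair, untreated animals 1 and 3, an alternative chosen after seeing the data that leaves 1 untreated animal, the changes at the high dose against untreated were 0.21 and 0.78 for BAG3, and 0 of 6 probe sets passed. Without untreated animal 2 and low-dose animal 1 the other 5 probe sets did not pass, HSPB1 being at 0.79, HSPB3 at 0.51 and CRYAB at 0.43 and 1.48 against untreated.

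Leaving out single animals kept the direction of all 6 changes at the high dose against untreated. The range was 0.46 to 0.95 for HSPB1, the lower value without high-dose animal 1 and the upper one without high-dose animal 2. It was 0.34 to 0.58 for HSPB3, 0.31 to 0.43 for the brighter and 1.10 to 1.94 for the dimmer CRYAB probe set, 0.95 to 1.70 for the brighter and 1.11 to 1.49 for the dimmer BAG3 probe set. The dimmer CRYAB probe set came to 1.10 without high-dose animal 2, whose value of 7.01 was the highest of the 8.

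The gap between the 3' and 5' control probe sets for actin and GAPDH, which widens as RNA breaks down, averaged 3.06 to 3.45 in untreated, 3.44 to 3.83 in low-dose and 3.01 to 3.17 in high-dose animals. For actin alone it was 4.88 to 5.26 in untreated, 5.48 to 6.04 in low-dose and 4.92 to 5.18 in high-dose animals. The low-dose actin gaps thus lay above those of both other groups. For GAPDH the low-dose gaps, 1.32 to 1.62, lay within the untreated range of 1.09 to 1.65. With the averaged gap as a covariate the changes at the high dose against untreated were 0.69 for HSPB1, 0.54 for HSPB3, 0.40 and 1.59 for CRYAB and 1.23 and 1.26 for BAG3, close to the values without it. At the low dose against untreated the covariate moved HSPB3 to -0.46 and the dimmer CRYAB probe set to 0.49, the unadjusted limma p of that CRYAB probe set becoming 0.209. The gaps at the high dose did not overlap those at the low dose. Between high and low dose the covariate gave 0.52 for HSPB1, 0.9998 for HSPB3, 0.60 and 1.10 for CRYAB and 1.09 and 1.39 for BAG3. None of these passed after adjustment, and the unadjusted limma p of HSPB1 became 0.169.

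Of 7 further genes looked for by symbols of the small heat shock protein family, 5 were measured, and none passed in any of the 4 comparisons (limma). HSPB11 was counted among them by its symbol only. HSPB8, the partner of BAG3, had 10.50, 11.003 and 10.37 in untreated animals, 11.30, 10.10 and 10.27 at the low dose and 11.18 and 11.17 at the high dose. It was highest in low-dose animal 1, which was also high in BAG3, so the high-dose pair was not on top. Its change at the high dose against untreated was 0.55 ± 0.34 (SE; limma adjusted p = 0.75).

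HSPB7, a small heat shock protein of the heart, had 11.87, 12.15 and 11.95 in untreated animals, 12.44, 11.70 and 11.85 at the low dose and 12.51 and 12.28 at the high dose. Again low-dose animal 1 lay among the high-dose values. Its change at the high dose against untreated was 0.41 ± 0.22 (limma adjusted p = 0.7), while HSPB2 was at 0.18 and HSPB11 at 0.24. HSPB6 (HSP20), known for its role in muscle relaxation, was the one gene of these 5 with a change below 0.

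HSPB6 had 9.97, 9.58 and 9.77 in untreated animals, 10.69, 9.92 and 9.46 at the low dose and 9.38 and 9.67 at the high dose, with overlap between all groups. Its change at the high dose against untreated was -0.25 ± 0.31 (limma adjusted p = 0.905), and its dimmer probe set was at -0.13. In all, 4 of these 5 genes had a higher mean at the high dose than in untreated animals, against 53.3% of all probe sets. The median change was 0.24, the value of HSPB11. High-dose and untreated values did not overlap in 4 of the 5, with the high dose above, against 14.7% of all probe sets. For HSPB2 and HSPB11 the groups barely separated. Their lowest high-dose values were 9.444 and 7.814, and their highest untreated values 9.440 and 7.803. The 2 high-dose animals were the highest of the 8 for HSPB11, but not for HSPB2, HSPB6, HSPB7 or HSPB8.

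**Figure D4:**
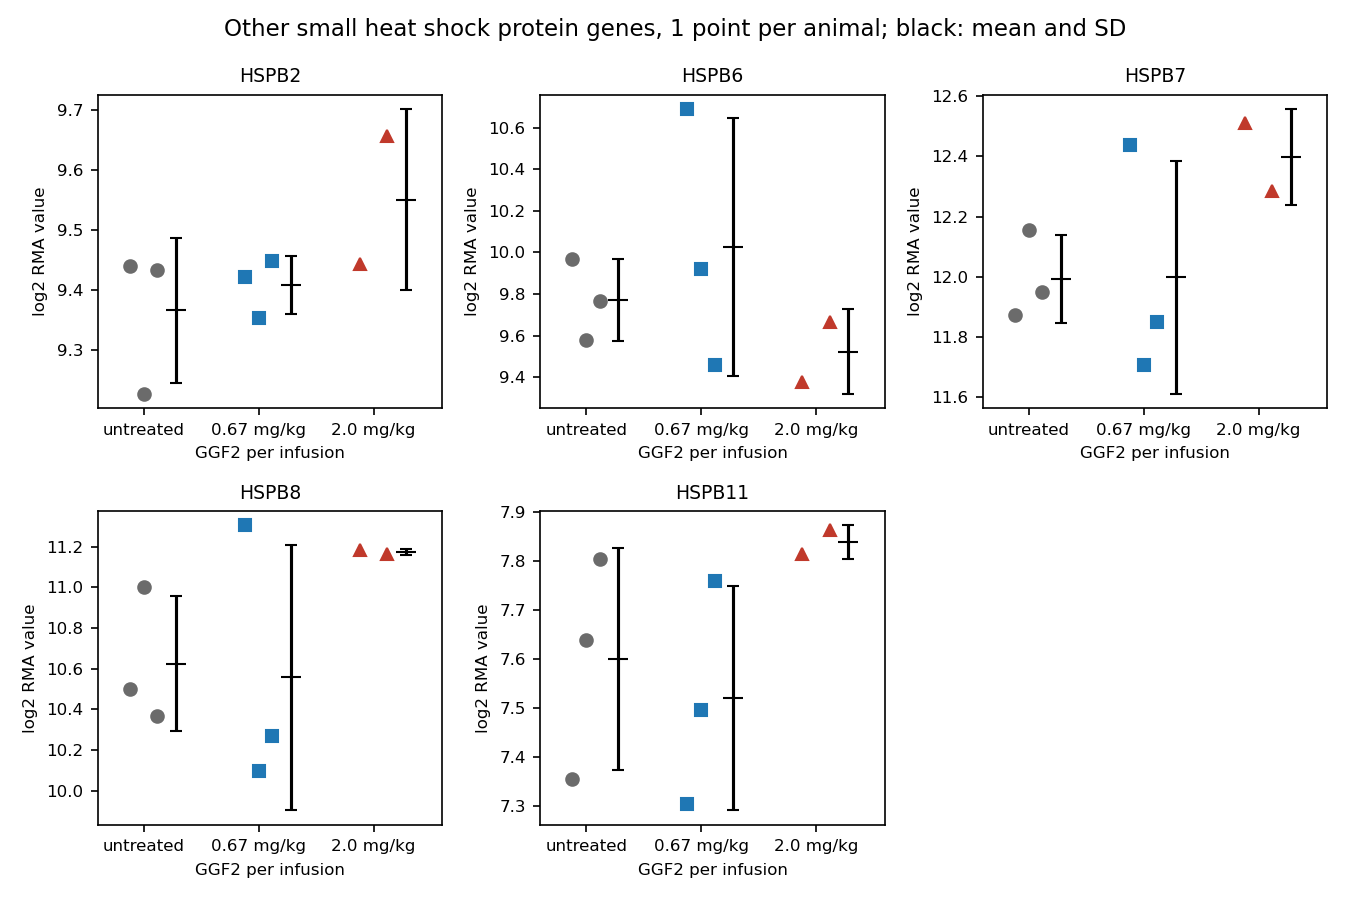
Log2 RMA values (vertical axis) of HSPB2, HSPB6, HSPB7, HSPB8 and HSPB11 by GGF2 dose per infusion (horizontal axis), with 1 point for each animal and the group mean and SD in black. In HSPB6, HSPB7 and HSPB8 low-dose animal 1 is the highest or the second highest of the 8 animals, and the HSPB6 values at 2.0 mg/kg (9.38 and 9.67) overlap the other groups.

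Of the partners of BAG3 in HSP70 binding and selective autophagy, 16 genes were measured. At the high dose 12 were higher and 4 lower than in untreated animals, where 53.3% of all probe sets were higher. The median was 0.19, and none passed (limma). HSPA8, the constitutive HSP70 that BAG3 binds, was at 0.61 ± 0.17 (SE, limma adjusted p = 0.405) on its brightest probe set. Its dimmer probe sets, with means of 3.82 to 4.91, were at -0.15, -0.18 and -0.09. The autophagy genes MAP1LC3B, whose protein coats autophagosomes, and WIPI1, which acts at their formation, were at 0.29 and -0.50, with 0.29 on the dimmer WIPI1 probe set. HSP70.2, an inducible HSP70, was at 0.54 on its brightest probe set, where high-dose and untreated values overlapped, and at 0.85 and 1.01 on 2 others, where the high-dose values lay above all untreated ones. The ubiquitin ligase STUB1, which marks the proteins that BAG3 carries, was at 0.12, and the autophagy receptor SQSTM1 was at 0.18. Low-dose against untreated, 11 of the 16 were higher (52.0% of all probe sets), with a median of 0.09.

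In a list of filament, Z-disc and related genes, clients of small heat shock proteins among them, 9 of 17 were higher and 8 lower at the high dose. Of all probe sets, 53.3% were higher than in untreated animals. The median of the 17 was 0.05, and none passed (limma). Desmin (DES), the main filament client of CRYAB, was at 0.05 ± 0.14. The filament protein synemin (SYNM) was at 0.75. PDLIM3, a Z-disc protein, was at 1.22, with overlap between the groups, and this rested on high-dose animal 2: it was 0.33 without that animal and 2.11 without high-dose animal 1. Vimentin (VIM), a filament protein of fibroblasts and vessels, was at -0.75. Lamin A/C (LMNA), which lines the nucleus, was at 1.11, with 1.08 on its dimmer probe set. Low-dose animals had 9 of the 17 higher than untreated animals (52.0% of all probe sets), with a median of 0.03.

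Heat shock factors and other genes they switch on had a median of 0.35 at the high dose against untreated, and none passed (limma). Of the 18, 14 were higher, against 53.3% of all probe sets. The factor HSF1 was at 0.14 and HSF2 at -0.03. The inducible chaperone HSPA6 was at 1.51, and the chaperones HSPH1 and HSP90AA1 were at 0.76 and 0.34. The dimmer HSP90AA1 probe sets were at 0.09 to 0.27. At the low dose against untreated the median was 0.07 and 10 of 18 were higher (52.0% of all probe sets). The immediate early genes with the smallest p at the high dose were NR4A2, IER5, KLF4 and BTG2, at 3.31, 2.09, 1.52 and 2.03.

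The genes whose values ran most like those of each of the 4 genes over the 8 animals were taken from 5252 probe sets with 1 symbol and a mean of at least 6. Nearest to the brighter BAG3 probe set were LMNA (Pearson 0.99), SERPINB2 (0.99), SRSF6 (0.98), OSER1 (0.98) and IFRD1 (0.98). LMNA had 7.98, 9.24 and 7.97 in untreated animals, 9.47, 7.93 and 8.69 at the low dose and 9.55 and 9.46 at the high dose, the same pattern of high and low animals as BAG3. Nearest to HSPB1 were ALYREF (0.97), HERC3 (0.96), ACAD9 (0.96), LPGAT1 (0.95) and MACROD1 (0.95). Nearest to HSPB3 were USE1 (0.98), PRDX5 (0.95), ESYT2 (0.95), SUDS3 (0.93) and PLK2 (0.93). Nearest to the brighter CRYAB probe set were GADD45G (0.94), C17H20orf27 (0.93), SQLE (0.92), PPP1R7 (0.92) and SGTA (0.92). The 4 sets of 5 genes had no gene in common. With 8 animals and 5252 probe sets, high correlations occur for many genes, and these describe the pattern only.

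Between the genes themselves, correlations differed before and after the group means were removed. The Pearson correlation over the 8 animals was 0.55 between HSPB1 and HSPB3, and -0.35 once the group means were removed. HSPB1 and the brighter BAG3 probe set correlated at 0.78, and at 0.59 within groups. The 2 BAG3 probe sets correlated at 0.86 and within groups at 0.95, whereas the 2 CRYAB probe sets correlated at 0.56 and within groups at 0.22. The dimmer CRYAB probe set correlated with HSPB2 at 0.71 and within groups at 0.49. By Spearman correlation the values were 0.45 with HSPB2 and 0.69 with the brighter CRYAB probe set.

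Some marker lists of other cells also had a different signal in the 2 high-dose hearts. No marker of any list passed in any comparison (limma). Beside the counts below, 53.3% of all probe sets were higher at the high dose than in untreated animals, and 52.0% at the low dose. In bulk tissue, fewer cells of a type and less RNA per cell cannot be told apart. Of 7 macrophage markers measured, 6 were lower at the high dose than in untreated animals, and the sum of their linear signals was 865 to 1268 in untreated, 884 to 1392 in low-dose and 576 to 607 in high-dose animals. Of 8 fibroblast markers, 6 were lower, with sums of 8958 to 12077 in untreated, 8006 to 12449 in low-dose and 5030 to 7213 in high-dose animals. All markers of both lists lay above the lower quartile of the arrays. Of the 12 ventricular muscle markers, 11 were higher at the high dose, by a median of 0.05, and their sums of 205751 to 208969 in high-dose animals overlapped those of 193565 to 206994 in untreated animals. Endothelial markers summed to 2116 to 2383 in untreated, 1729 to 2514 in low-dose and 1530 to 2007 in high-dose animals, with 6 of 9 lower at the high dose than in untreated animals. Adipocyte markers summed to 6085 to 6841 in untreated, 4353 to 6325 in low-dose and 4848 to 5661 in high-dose animals, with 5 of 5 lower at the high dose. Epicardial and mesothelial markers summed to 153 to 275 in untreated, 352 to 515 in low-dose and 225 to 268 in high-dose animals. The low-dose sums lay above all untreated ones, as did the low-dose values of the dimmer CRYAB probe set. The high-dose sums lay within the untreated range, whereas the high-dose values of that probe set were the highest of the 8 animals. Of the 5 epicardial and mesothelial markers, 4 were higher at the low dose than in untreated animals. KRT8, a keratin of simple epithelium, was higher by 2.21 (limma adjusted p = 0.795). The changes of KRT19, TCF21, KRT18 and WT1 were 0.45, 0.36, 0.18 and -0.11. The sums of the atrial muscle, smooth muscle and pericyte, lymphocyte, erythrocyte, and Schwann cell and nerve lists overlapped between high-dose and untreated animals. Those of skeletal muscle were 105 to 117 in untreated, 111 to 123 in low-dose and 117 to 118 in high-dose animals. The part of tissue composition in the changes of HSPB1, HSPB3, CRYAB and BAG3 was not tested.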

How the data were processed

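The authors deposited log2 expression values, 1 column per animal, for 24123 probe sets. RMA and Partek 6.6 are named, per the submitters' processing notes, and further settings are not given. RMA equalizes the arrays' distributions, so a change shared by most genes would be removed. Control probe sets (124) were left out. Symbols came from the platform annotation (10069 probe sets with 1 symbol, 198 with several, 13732 with none), and the NCBI gene IDs of the 4 genes carried the same symbols in RefSeq.

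Groups follow the treatment in the labels; replicate numbers follow sample order and pair nothing. limma 3.58.1 (R 4.3.3) fitted 1 mean per group to all 8 arrays (5 residual and 3.50 prior degrees of freedom), with Benjamini-Hochberg adjustment over all 23999 probe sets. When the script was tested on simulated data, most probe sets that passed were ones to which a change had been added. The added changes were larger than those of the genes studied here, and recovery of smaller ones was not tested. Linear signals are 2 to the power of the log2 values.

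The 4 genes, the lists and the tests were chosen with earlier results of these data known. Named were all probe sets of the 4 genes, up to 4 genes per pathway list with the smallest p at the high dose against untreated (brightest probe set of each gene), and the 5 genes most correlated with each of the 4. STUB1, SQSTM1, DES, HSF1, HSF2, HSPB6 and the dimmer probe sets were added after their values were seen. Markers of 12 cell types were counted; sequences were not used here.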

Additional observations from a re-analysis of the deposited data

How the results depend on the processing

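No paired analysis was possible because the labels give no replicate numbers. None of the 6 probe sets passed in any comparison under the intensity trend, the robust prior, array weights, median centring, a second quantile normalization, a filter leaving out dim probe sets, fits of the compared groups alone, either covariate or with any 1 animal left out. Without the 2 animals of neighbouring tag numbers, untreated 2 and low-dose 1, the dimmer BAG3 probe set passed in each comparison of the high dose, 1 of 6 against 0.229% (untreated) and 0.05% (low dose) of all probe sets. Without untreated 1 and 3 none passed. At an unadjusted p under 0.05 the counts were 5 (high dose against untreated), 1 (low dose), 4 (high against low) and 3 (both doses). The order with both high-dose animals on top held in 6 of 6 probe sets under median centring and a second quantile normalization, which were chosen for it after seeing the data. In the values as deposited 6.52% of all probe sets showed that order, and the share under these settings is not given here. The count therefore describes these genes and tests nothing. The sign of a log2 change turned in 16 refits, while sign and side of the threshold were kept in 410; the values follow, those with 1 animal left out as ranges. Without untreated 1 and 3 the low-dose change was -0.055 for HSPB1 and -0.75 for the brighter BAG3 probe set, which was at -0.27 over both doses. With the immediate early covariate the brighter BAG3 probe set was at -0.50 (high against untreated), -0.46 (high against low), -0.042 (low against untreated) and -0.27 (both doses); with array weights the brighter CRYAB probe set was at 0.00058 at the low dose. With 1 animal left out the low-dose changes ranged from -0.032 to 0.22 for HSPB1, -0.16 to 0.13 and -0.27 to 0.15 for the brighter CRYAB and the dimmer BAG3 probe set and -0.11 to 0.74 for the brighter BAG3 one, and the change over both doses from -0.013 to 0.23 for HSPB3. With 2 high-dose animals, a fit without 1 of them takes the other to vary like the remaining groups.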
